A study of Mus musculus with 2 samples.

Results

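Spermatogonia, the dividing germ cells that precede meiosis, were followed through 8 genes chosen by name, running from undifferentiated cells (Zbtb16, Sall4, Id4, Uchl1) to differentiating and meiosis-entering cells (Kit, Stra8, Dmrt1, Dmrtb1). Every probe set annotated to exactly 1 of these symbols was taken, which gave 9 probe sets for the 8 genes, out of 8251 genes with such a probe set. The samples were 2 single arrays of polyadenylated RNA from mouse testes at day 10, 1 labelled Mili+/- (heterozygous for the mutation of Mili) and 1 labelled Mili-/- (homozygous mutant). No Mili+/+ array and no other age was analysed here. The labels give neither the strain, nor the number of mice behind an array, nor how the knockout allele was made, and with 1 array per genotype no difference has a replicate check and no p-value is given. The 2 arrays can therefore differ by animal, by the stage the testes had reached or by hybridisation as well as by genotype, and these cannot be told apart.

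Undifferentiated spermatogonia hold the stem cells of the male germ line. They give rise to differentiating spermatogonia, which begin to express the receptor KIT, divide several times and, under retinoic acid, induce Stra8 and enter meiosis. Mili, also called Piwil2, encodes a Piwi protein of germ cells that carries small RNAs directed against transposons. Per the labels, germ cells of the mutant stop early in the first meiotic prophase, and the submitters took animals before the first dying cells were seen.

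The start-site windows of 3 of the genes are shown because they bear on how the gene is known to be switched on (Stra8), on the receptor that marks differentiation (Kit) and on the gene with the smallest difference between the arrays (Uchl1). They are the 250 bases before the start site in RefSeq, build GRCm38.p6, plus strand. Capitals mark the letters AGGTCA (the core motif of retinoid receptors), GGGCGG (the GC box) and TATAAA (the TATA box), searched on both strands.
Stra8, chr6:34920698-34920947: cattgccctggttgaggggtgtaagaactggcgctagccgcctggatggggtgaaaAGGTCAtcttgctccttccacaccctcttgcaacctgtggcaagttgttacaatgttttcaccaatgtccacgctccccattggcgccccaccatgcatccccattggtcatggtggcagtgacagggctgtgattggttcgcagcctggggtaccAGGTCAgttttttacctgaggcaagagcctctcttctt
Kit, chr5:75574737-75574986: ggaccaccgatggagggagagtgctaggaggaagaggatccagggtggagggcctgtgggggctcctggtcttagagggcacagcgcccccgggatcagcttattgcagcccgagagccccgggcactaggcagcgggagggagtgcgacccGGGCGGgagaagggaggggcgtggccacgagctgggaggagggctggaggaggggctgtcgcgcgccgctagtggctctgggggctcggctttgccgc
Uchl1, chr5:66675871-66676120: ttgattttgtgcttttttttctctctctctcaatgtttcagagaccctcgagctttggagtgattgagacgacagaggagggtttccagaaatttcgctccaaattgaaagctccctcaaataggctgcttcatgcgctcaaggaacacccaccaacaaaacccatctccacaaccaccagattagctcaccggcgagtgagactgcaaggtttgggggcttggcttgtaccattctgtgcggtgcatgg
The Stra8 window held AGGTCA in 2 places on the plus strand, their first bases lying 194 and 38 bases before the start. Of 32841 windows of this length in the RefSeq table, 14.0% held the motif at least once on either strand and 1.36% held it at least 2 times. The table lists 2 windows for Kit, with starts 4 bases apart, of which the first is shown, and each held the same GC box, 98 or 102 bases before the start, a motif found in 32.7% of all windows, and its G and C content was 70.8% against a median of 52.4%. The Uchl1 window held none of these motifs. Windows were also found for Id4 and Dmrtb1, and neither held AGGTCA. The Id4 window held GGGCGG, read on the other strand, in 5 places. Zbtb16, Sall4 and Dmrt1 had no entry in the table. The E-box, CANNTG, to which E proteins bind, was in none of the windows of Stra8, Kit, Uchl1 and Id4 but in both windows listed for Dmrtb1, and 66.2% of all windows held it. It is not capitalised here. A match of letters is a description of the window and not a site in use.

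The arrays were alike as a whole. The Pearson correlation across the log2 signals of the 12422 non-control probe sets was 0.98. The array medians were 38.5 for Mili+/- and 41.55 for Mili-/-, a shift of 0.11 on the log2 scale, which was removed by centring each array on its median. All differences below are on the log2 scale, as Mili-/- minus Mili+/-, after that centring. Genes were read against the 5095 genes whose signal reached the array median on at least 1 array, called the brightness filter. The centring used all non-control probe sets, dim ones included. The genes past the brightness filter had a median difference of -0.13 after it, and of -0.02 with the values as deposited. The Actb control probe sets, whose 3' over 5' signal reports how intact the RNA was, gave 1.53 for Mili+/- and 1.52 for Mili-/-. No probe set was annotated to Piwil2 alone, and the labels could not be set against the level of the mutated gene.

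All 8 genes, each read by its brightest probe set, were lower in Mili-/-, by 1.79-fold for Sall4 at the most and by a difference of -0.27 for Uchl1 at the least. Each also lay below the median of all genes. Of the 5095 genes past the filter, 68.9% were lower in Mili-/- after centring. That share depended on the scaling. It was 52.5% with the values as deposited, 51.5% after quantile normalization and 51.6% after loess on brightness. The median difference of the 8 genes was -0.49, against -0.13 over all genes. At least 1.5-fold lower were 3 of the 8 (Sall4, Stra8 and Kit), where 5.04% of all genes were, and none was at least 1.5-fold higher, where 2.47% were. The 8 genes were chosen with earlier results of these data known, so these shares are a description and not a test. Of the 3, Sall4 reached the array median in Mili+/- only. None of the 8 was 2-fold lower, a fold that 0.530% of all genes reached, or 2-fold higher, which 0.314% reached. A bulk signal does not separate fewer cells of a type from less RNA per cell. The only measure of error was how far probe sets for 1 gene differed from each other, with an SD of 0.31 across the 720 genes that had several past the filter, and it says nothing of the spread between animals or hybridisations. After subtracting the median of all genes, Sall4 stood at -0.71 (-2.28 of these SDs) and was the only one of the 8 beyond 2 SDs.

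**Figure D1:**
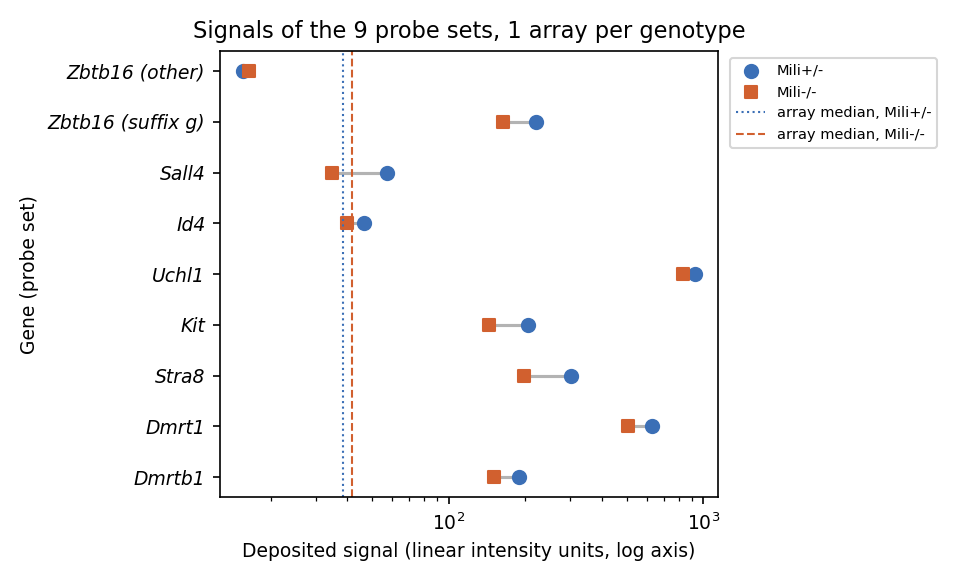
Deposited signal of each of the 9 probe sets on the Mili+/- array (circles) and the Mili-/- array (squares), on a log axis, with vertical lines at the array medians of 38.5 and 41.55. Every probe set is lower in Mili-/- except the dim one of Zbtb16 (15.5 and 16.4), and the Mili-/- signals of Sall4 and Id4 lie below that array's median.

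Among the genes of undifferentiated cells, Sall4 had the largest difference. It encodes a zinc finger transcription factor of stem and progenitor spermatogonia. Its signal was 57.4 in Mili+/- and 34.7 in Mili-/-, a difference of -0.84. Of all genes past the filter, 1.22% were as low or lower, placing Sall4 at rank 62 of 5095. Dim genes vary more between the arrays: in the dimmest of 4 equal groups by brightness, to which Sall4 belongs, 9.03% of genes were at least 1.5-fold lower and 2.98% were as low as Sall4. Sall4 reached the array median in Mili+/- only, and genes admitted in that way tend to be lower in Mili-/-.

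Zbtb16 encodes PLZF, a transcriptional repressor with a BTB domain that spermatogonial stem cells need for their maintenance. It was the 1 gene of the 8 with 2 probe sets, and these did not give the same result. The brighter, whose name carries the suffix g (a mark of probes chosen from sequence shared with a grouped probe set), had signals of 219.5 and 163.7, a difference of -0.53 or 1.45-fold lower in Mili-/-. The other had 15.5 and 16.4, well under both array medians, and a difference of -0.03. The lower level of Zbtb16 thus rested on 1 probe set, and 6.63% of all genes were as low as it was there.

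Id4 encodes an inhibitor of basic helix-loop-helix factors, a protein that pairs with E proteins and keeps them from DNA, and it marks the stem cell fraction. Its signals were 46.5 and 40, a difference of -0.33. Minus the median of all genes this was -0.20, smaller than the SD between probe sets, and 21.9% of all genes were as low. Like Sall4, Id4 reached the array median in Mili+/- only. Its relatives did not move as a group: Id2 stood at -0.38 (640 and 531.4), Id3 at -0.04 and Id1 at 0.17. The E protein genes Tcf3, Tcf4 and Tcf12, whose products ID proteins bind, stood at 0.27, 0.03 and 0.12. Of these 6 genes, Id2 alone lay below the median of all genes.

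Uchl1 encodes a ubiquitin hydrolase known as PGP9.5, used to stain spermatogonia and also abundant in neurons. Its signals were 929.7 and 833.8, the smallest difference of the 8 at -0.27. Minus the median of all genes this was -0.14, and 29.5% of all genes were as low. Its relative Uchl5, a ubiquitin hydrolase of the proteasome, stood at -0.26 (92.5 and 83.4). Of 11 measured neuronal and neuroendocrine genes, 2 passed the filter, Tubb3 (-0.13, with a second probe set at 0.14) and Chga (-0.01). The neuronal gene Snap25 was dim at 0.7 and 0.9.

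Among the genes of differentiating cells, Stra8 had the largest difference. It is induced by retinoic acid before meiosis, and its start-site window with 2 AGGTCA motifs is printed above. Its signal was 302.7 in Mili+/- and 198.1 in Mili-/-, a difference of -0.72 or 1.65-fold lower. Of all genes, 2.14% were as low, and in its own group of 1273 genes by brightness 1.26% were, rank 16. On both arrays the signal was well above the array median. The difference from the median of all genes was -0.60, which is -1.91 SDs between probe sets.

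Kit encodes the receptor tyrosine kinase for stem cell factor and appears on spermatogonia as they differentiate. Its signal was 205.1 in Mili+/- and 143.9 in Mili-/-, a difference of -0.62 or 1.54-fold lower. Of all genes, 3.95% were as low, and 3.22% of those of similar brightness. Kitl, the gene of its ligand, which Sertoli cells supply, had 391.9 and 419.9 and a difference of -0.01, above the median of all genes. The difference of the receptor minus that of its ligand was -0.61. KIT is also carried by mast cells and some Leydig cells. Of 8 measured mast cell genes, 2 passed the filter and both were higher, the tryptase gene Tpsb2 (63.4 and 94.4, 0.46) and Hdc (0.12), while the defining gene Cpa3 was dim at 7.7 and 5.5.

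Dmrt1 and Dmrtb1 encode transcription factors with a DM domain. DMRT1 holds spermatogonia back from meiosis and is also made by Sertoli cells, and DMRTB1 acts in late differentiating spermatogonia as they turn from mitosis to meiosis. Dmrt1 had signals of 629.9 and 505.5, a difference of -0.43. Dmrtb1 had 189.6 and 150.7, a difference of -0.44. Both were thus lower in Mili-/- by nearly the same amount, 1.34-fold and 1.36-fold. Of all genes 12.5% were as low as Dmrt1, but only 4.79% of the 1274 brightest were, and 11.6% of all genes were as low as Dmrtb1.

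**Figure D2:**
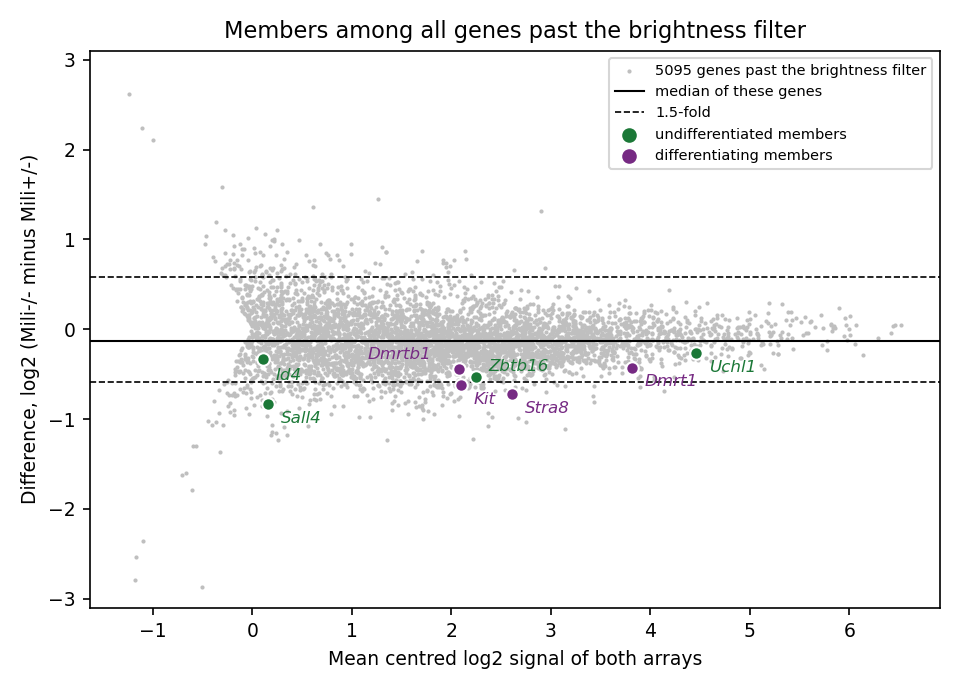
Difference (Mili-/- minus Mili+/-, log2) against the mean centred log2 signal for the 5095 genes past the brightness filter, with the 4 undifferentiated and 4 differentiating genes marked, a line at the median of -0.13 and dashed lines at 1.5-fold. Sall4, Stra8 and Kit lie below the lower dashed line, and the grey cloud is widest among dim genes, where Sall4 and Id4 lie.

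The first 4 genes had a median of -0.43 and a range from -0.84 to -0.27, and the other 4 a median of -0.53 and a range from -0.72 to -0.43. The ranges overlap, 2 of the first 4 (Sall4 and Id4) reached the array median in Mili+/- only, and the difference between the medians was not tested.

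Of 30 further genes of undifferentiated spermatogonia, 18 had a probe set and 6 passed the filter, with a median of -0.17. Cdh1, the E-cadherin gene, stood at -0.31 and the integrin gene Itga6 at -0.22. Cd9, a tetraspanin gene of the stem cell surface, stood at 0.25 (162.9 and 208.4). The others were Itgb1 (-0.20, with a second probe set at -0.05), Egr2 (-0.13) and Sox3 (-0.12, with another probe set at -0.51). The share of somatic cells in the signals of these genes was not tested. None of the 6 was 1.5-fold lower, a count that the 5.04% of all genes would also give. The receptor genes for GDNF, Gfra1 (7.6 and 12.6) and Ret (1.1 and 2.9), lay far below the array medians and gave no usable difference.

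Of 20 further genes of differentiating spermatogonia, 10 had a probe set and 9 passed the filter, with a median of -0.33. At least 1.5-fold lower were 3 of the 9, where 5.04% of all genes were, and 8 lay below the median of all genes. Of the 3, Dnmt3a and Ccnd1 were only just past that fold, each at 1.51-fold. How many of the list passed it under other scalings was not counted. Mki67, a marker of cycling cells of every type, stood at -0.71 (195.8 and 129.4). Top2a (-0.33, the value at the median), Ccna2 (-0.14) and Ccnd3 (0.02) are also genes of cell division. The count and median of this list are thus not particular to differentiating spermatogonia. The DNA methyltransferase gene Dnmt3a stood at -0.60 (50.9 and 36.3) and reached the array median in Mili+/- only. The cyclin gene Ccnd1 stood at -0.60 (118 and 84.3), with a second probe set at -0.65. Crabp1, which encodes a retinoic acid binding protein, stood at -0.42 (253 and 203.8), while Ccnd2, a cyclin gene linked to the step into differentiation, stood at -0.15 (155.2 and 150.5). Mki67 and Dnmt3a each had a further probe set that was too dim to pass the filter.

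Of 40 listed genes of KIT signalling, the ligand gene Kitl among them, 30 had a probe set and 21 passed the filter, with a median of -0.12, close to that of all genes, and 10 of 21 lay below it. The adaptor gene Crkl stood at -0.62 (128 and 89.7) and Sos1, which activates RAS, at -0.53 (93.5 and 69.9). Cbl, which encodes a ubiquitin ligase that brings KIT to degradation, stood at 0.69 (24.6 and 42.7) but passed through the Mili-/- array alone. A list of 20 genes of GDNF, FGF, CSF1 and CXCL12 signalling had 7 past the filter, with a median of -0.15. Ret and Gfra1 were not among them, and most of the 7 belong to the other signals, as do Fgfr1 at -0.38 and Csf1 at 0.28. The kinase gene Fyn stood at -0.32 and the ligand gene Gdnf at 0.07.

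Of the relatives of Zbtb16, Sall4 and the DM-domain genes, 6 of 14 had a probe set and 2 passed the filter. Zbtb17, which encodes the MYC partner MIZ1, had 73.3 and 10.8, a difference of -2.87, and reached the array median in Mili+/- only. Zbtb20, a repressor gene, had 96.1 and 69.8 (-0.57). Sall3 was dim at 31.5 and 29.9, and Zbtb7a, Zbtb7b and Bcl6 were dim as well. None of the other listed DM-domain genes had a value.

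Markers of other cells stood on both sides of the median of all genes. In early meiotic prophase, the stage that follows, 10 of 22 genes had a probe set and 7 passed the filter, with a median of -0.45. Syce2 (-0.62), Atm (-0.61) and Smc3 (-0.50) were the lowest. The others were Rad51ap1 (-0.45), Stag3 (-0.31), Sycp1 (-0.29) and H2ax (0.01), while Dmc1, Msh5 and Sycp3 were too dim to pass. Atm, Smc3, Rad51ap1 and H2ax are not particular to meiotic cells, so the count and median of this list are not either. The median of the list was -0.31 after quantile normalization and -0.30 after loess on brightness, where that of all genes was -0.01. Of 14 genes that germ cells of most stages express, 3 had a probe set and 2 passed the filter: Dazl, an RNA-binding protein gene, gave signals of 1342 and 1190.6 (-0.28, and -0.52 for another probe set), and Ddx4, the mouse Vasa gene, had 245.6 and 243.9 (-0.12). Sums given here are of deposited signals and keep the 0.11 log2 shift between the arrays, while the medians beside them are centred. The summed signal of 20 Sertoli genes past the filter was 9331 in Mili+/- and 10922 in Mili-/-, with a median difference of 0.06. That of 9 Leydig genes was 2817 and 2728 (-0.23), that of 12 peritubular and stromal genes 7607 and 8219 (0.03) and that of 10 macrophage genes 950.1 and 1071 (0.11). The 4 endothelial genes summed to 584.3 and 560.8 (0.10) and were split. Mcam (-0.60) and Eng (-0.25) were lower, and Cdh5 (0.45) and Pecam1 (0.45) were higher. Pecam1 reached the array median in Mili-/- only, and with both arrays required to reach it the endothelial median was -0.25. Of 8 measured erythroid genes, 4 passed the filter, with a median of 0.80, and summed to 1500 and 2032. Most of that sum was Hba-a1 (1396.8 and 1827.9), which stood at 0.28. Of 9 measured adipose genes, 6 passed, with a median of 0.77, and summed to 342.1 and 602.4. All 10 erythroid and adipose genes past the filter were higher in Mili-/-, where 31.1% of all genes were after centring. Of these, 2 of the erythroid and 3 of the adipose genes had reached the array median in Mili-/- only. Among the dim erythroid genes, Epor (-0.44) and Slc4a1 (-0.06) were lower, and Epb42 and Hemgn were too dim for a usable difference. Without the filter the medians were 0.16 and 0.64. No measured gene of these lists was at exactly 0 on either array. The part of these cell types in the differences of the 8 genes was not tested.

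**Figure D3:**
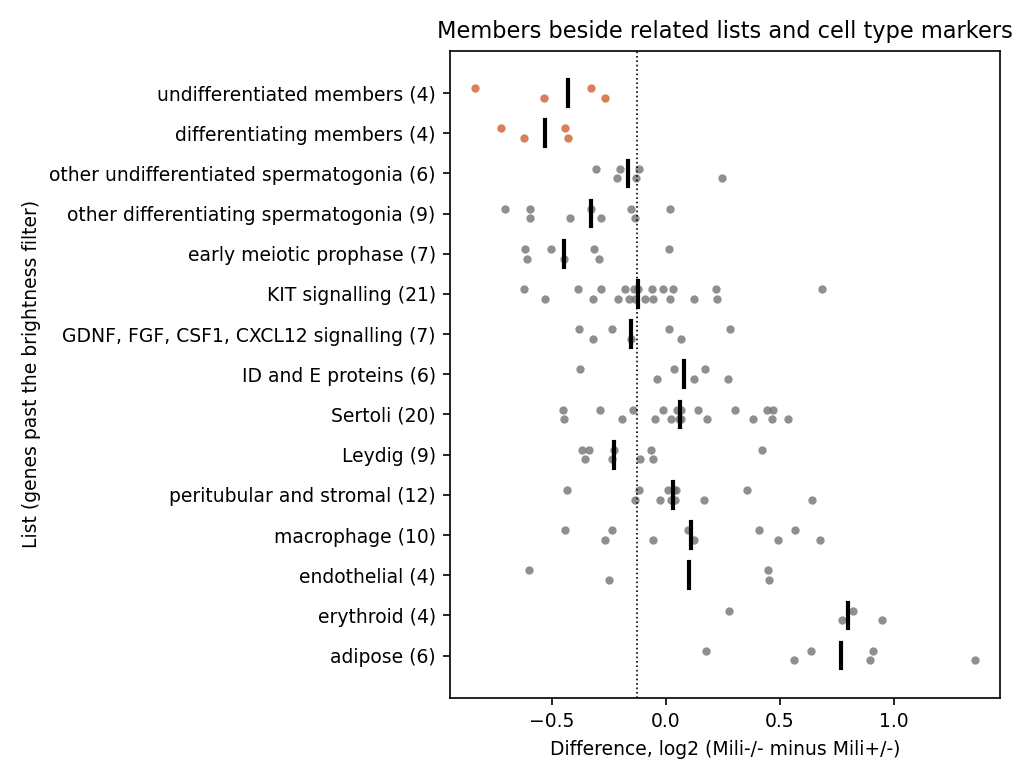
Difference (Mili-/- minus Mili+/-, log2) of each gene past the brightness filter in the 2 groups of spermatogonial genes (orange) and in related lists and cell type markers (grey), with the number of genes in brackets, a bar at each median and a dotted line at the median of all genes (-0.13). The 8 spermatogonial genes all lie left of the dotted line, as do 6 of the 7 genes of the early meiotic list. The 10 erythroid and adipose genes past the filter all lie right of it.

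For each of the 8 genes, the gene whose centred log2 signals on the 2 arrays lay nearest was looked up, a likeness that rests on 2 values only. These were Lims1 for Zbtb16, Prkcz for Sall4, Rpf1 for Id4, Hspa5 for Uchl1, Acin1 for Kit, Prnp for Stra8, Ndufb7 for Dmrt1 and Rad51ap1 for Dmrtb1, at distances from 0.01 (Hspa5) to 0.05 (Prnp) log2 units. Of these, Rad51ap1, a recombination gene with signals of 191.6 and 151.6, is itself on the list of early meiotic genes. Hspa5 is the chaperone gene of the endoplasmic reticulum and Ndufb7 a subunit gene of respiratory complex I.

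How the arrays were put on one scale set how many genes passed 1.5-fold. With the values as deposited, 2 of the 8 were 1.5-fold lower, where 2.43% of all genes were. After quantile normalization 1 was (2.85% of all genes), and after loess on brightness 1 was (2.71%), Sall4 in both. At least 1.2-fold lower were all 8, where 29.9% of all genes were. The median of the 8 minus that of all genes was -0.36, a value that centring cannot change. It was -0.35 after quantile normalization, -0.34 after loess, -0.43 without the filter and -0.33 with the mean over probe sets. With both arrays required to reach their median, Sall4 and Id4 fell away, and 2 of the other 6 were 1.5-fold lower where 3.87% of all genes were. Without probe sets that share sequence or were selected by relaxed rules, Zbtb16 was left with its dim probe set and did not pass the filter, and the median of the other 7 minus that of all genes was -0.31.

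**Figure D4:**
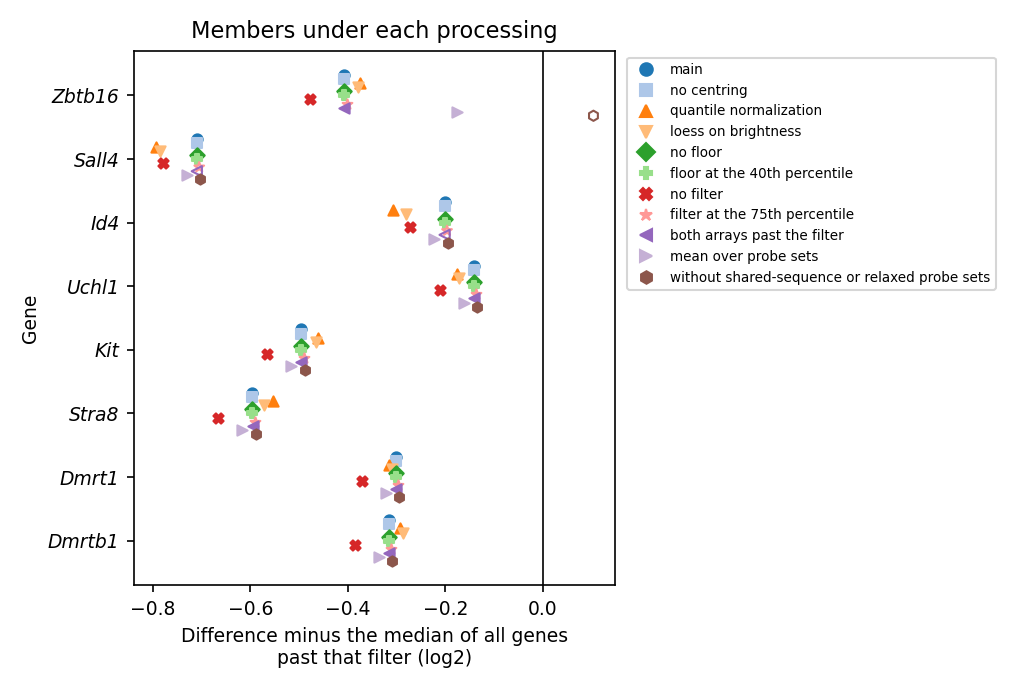
Difference of each gene minus the median of all genes past the filter (log2) under each processing, with open symbols where the gene did not pass the filter. Every symbol lies left of 0 except the dim probe set of Zbtb16, and Sall4 (-0.79 to -0.70), Stra8 (-0.67 to -0.55) and Kit (-0.57 to -0.46) lie farther left than Dmrt1 and Dmrtb1 throughout.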

How the data were processed

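The authors deposited 1 linear signal intensity per probe set and array, in 1 table of 12488 probe sets. From the values the arrays appear scaled to a common level, since the mean without the lowest and highest 2% was 100.0 in Mili+/- and 100.3 in Mili-/-. The signal algorithm is not stated in the labels or the file. The 66 control probe sets were left out, and 10833 of the others had 1 symbol in the platform annotation, 396 several and 1193 none. Symbols were updated through Entrez IDs in RefSeq (GRCm38.p6), which matched 10817.

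Each array was centred on its median, signals under the 20th percentile (6.3 and 7.0) were floored there, and log2 was taken. A gene took its brightest probe set and was compared if either array reached its median. Differences have no test, since each genotype has 1 array. The text names all 8 genes, and from each other list genes past 1.5-fold and up to 3 with the largest difference, as far as they bear on the 8, with some relatives named after their values were seen. The 8 genes and all lists were chosen with earlier results of these data known. Code was tested on simulated data. Python 3.11.15, NumPy 2.4.6, pandas 2.3.3, statsmodels 0.14.6 and matplotlib 3.10.9 were used. The alternatives were 3 scalings, 2 floors, 3 filters and 2 choices of probe set, a fold of 1.2 and leaving out each of the 8 genes.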

Additional observations from a re-analysis of the deposited data

How the results depend on the processing

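Under the 10 other settings, each of the 8 genes kept a difference below 0 wherever it passed the filter. Each difference moved by less than the SD between probe sets of a gene (0.31), except that of Zbtb16 in 1 setting. Without probe sets that share sequence or were selected by relaxed rules, Zbtb16 did not pass the filter. It then stood at -0.03, which was 0.10 above the median of all genes. The count of genes at least 1.5-fold lower, 3 in the processing used, was 1 after quantile normalization and 1 after loess on brightness, and 8 with a fold of 1.2, which 29.9% of all genes passed. The median of the 8 genes (-0.49) was -0.35 after quantile normalization and -0.35 after loess, settings under which the median of all genes was -0.01. Neither change of floor moved any of the 8 genes. The median of the KIT signalling list changed sign, to 0.013 after quantile normalization and 0.00061 after loess, while staying near that of all genes. Without the brightness filter, the medians of the other undifferentiated genes (0.019) and of the GDNF, FGF, CSF1 and CXCL12 list (0.028) also changed sign, because dim genes entered. The erythroid median fell from 0.80 to 0.16 in that setting. With 1 array per genotype, no setting tests the spread between animals, and the number of arrays limits the precision.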
